A study of Homo sapiens with 10 samples.

Results

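Genes of the megakaryocyte lineage were read in all 10 RNA-seq libraries of K562 cells, a leukemia line that can be driven toward erythroid or megakaryocytic fates. The 9 genes were given by name, namely ITGA2B, ITGB3, FLI1, RUNX1, PF4, GP1BA, CD9, THBS1 and PLEK, and all were present among the 20535 genes listed for each library. Of the 9, 4 (RUNX1, ITGA2B, CD9 and THBS1) averaged 1 TPM or more across the libraries and were tested, and 5 (ITGB3, FLI1, PF4, GP1BA and PLEK) stayed below that level and are given as values. TPM is the share of a gene's transcripts, corrected for length, among all transcripts of a library and scaled to a fixed sum.

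Megakaryocytes are the marrow cells that shed platelets, and they arise close to the erythroid branch. RUNX1, FLI1, GATA1 and their partners switch on the platelet programme, which includes the fibrinogen receptor integrin alphaIIb beta3 (the products of ITGA2B and ITGB3), the von Willebrand factor receptor (GP1BA, GP1BB, GP9 and GP5) and proteins packed into alpha granules such as PF4 and THBS1. K562 cells carry erythroid and megakaryocytic transcription factors side by side, and phorbol esters are a classical trigger of their megakaryocytic differentiation.

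The study asked how strongly different repressors act on HS2, an enhancer of the beta-globin locus control region, so the megakaryocyte genes are not at the targeted site. Every group was K562, and each of the 5 groups had 2 libraries. The control carried the nontargeting sgGal4, and the other 4 groups carried the HS2 guides (sgHS2). The titles of the control libraries name no effector, so a matched effector cannot be assumed in comparisons with sgGal4. Group K had dCas9-KRAB alone and group L had dCas9-LSD1 alone. Group LK had enCRISPRi-LK, which joins dCas9-LSD1 and MCP-KRAB, and group KL had enCRISPRi-KL, which joins dCas9-KRAB and MCP-LSD1. By the methods, doxycycline induced the dCas9 fusions, and the cells were sorted populations after lentiviral transduction, so each group is a separately made population. The paper refers to the replicates of the RNA-seq as experiments. The labels do not say whether libraries of a group came from separate cultures. The p-values thus measure the spread between these libraries, which may be technical. Population and effector cannot be told apart, and against sgGal4 the guide cannot be told apart from them either.

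Of the 9 genes, only FLI1 lies on the chromosome of the beta-globin cluster (chromosome 11, hg19 128556430 to 128683162, plus strand). In the same build ITGA2B spans 42449548 to 42467017 of chromosome 17 (minus strand), ITGB3 spans 45331193 to 45391109 and GP1BA 4835572 to 4838318 of that chromosome. RUNX1 spans 36160098 to 37376965 of chromosome 21 (minus strand), PF4 spans 74846528 to 74847744 of chromosome 4, CD9 spans 6308881 to 6347437 of chromosome 12, THBS1 spans 39873280 to 39891667 of chromosome 15 and PLEK spans 68592414 to 68624585 of chromosome 2.

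The libraries were checked before the genes were compared. The summed TPM of the listed genes was 790470 to 844414 per library, with 53.6% of it in the 13 mitochondrially encoded genes in sgGal4 replicate 1 and 39.9% to 46.6% in the other 9. That control library thus stood apart, and without it the median difference of all genes from sgGal4 was between −0.13 and −0.09 on the log2 scale in the 4 sgHS2 groups, whereas without sgGal4 replicate 2 it was between 0.14 and 0.19. With sgGal4 replicate 1 left out, 0 of the 4 tested members passed the threshold in any comparison, and the differences from sgGal4 described below were −0.46 for RUNX1 in L, 1.72 for ITGA2B in KL, −1.53 for CD9 in K and 1.23 for THBS1 in K. All 10 libraries had 0 TPM for GATA1, PGK1, UBA1, HDAC6 and 11 of 87 cytosolic ribosomal protein genes, so a 0 in these data can be a failed estimate and is reported only as listed at 0. KDM1A, which encodes LSD1, stood at 94.4 ± 14.5 TPM (SD, n = 2) in L but at 29.0 ± 2.23 TPM in LK, 26.7 ± 0.141 TPM in KL and 29.4 ± 5.87 TPM in sgGal4. ZNF10, the source of the KRAB domain, stood at 1.43 ± 0.651 TPM in sgGal4, 2.49 ± 1.85 TPM in K, 132 ± 5.20 TPM in L, 34.1 ± 3.79 TPM in LK and 362 ± 3.60 TPM in KL. KDM1A in L and ZNF10 in LK and KL follow the construct names, whereas ZNF10 in K and L and KDM1A in LK and KL do not, so K, L, LK and KL mean below the libraries labelled that way. HBE1, a globin gene of the targeted cluster, was at 1498 ± 172 TPM in sgGal4 and at lower means in the 4 sgHS2 groups, between 373 ± 16.3 TPM in KL and 1003 ± 23.4 TPM in L.

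Promoters are shown for RUNX1, which had the smallest p-value over the 5 groups, and for ITGA2B, a textbook target of GATA and ETS factors. Each sequence is the 250 bases before a RefSeq start (table of GRCh38.p14), 5′ to 3′ on the gene's strand, and each had exactly 1 match in GRCh37. The ITGA2B window lies at chr17:42467018-42467267 and the RUNX1 window, for a start inside the gene, at chr21:36260997-36261246, both on the minus strand. Capitals mark matches to the GATA letters (AGATAA, with A or T first and A or G last), the ETS letters (GGAAG) or the RUNX letters (TGNGGT, in which N is T or C), searched on both strands, and the 3 sets of letters share no match here.
ITGA2B: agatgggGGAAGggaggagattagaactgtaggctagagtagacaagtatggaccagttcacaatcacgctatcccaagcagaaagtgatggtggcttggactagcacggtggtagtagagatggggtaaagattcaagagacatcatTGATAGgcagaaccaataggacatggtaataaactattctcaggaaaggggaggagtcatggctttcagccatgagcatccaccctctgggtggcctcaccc
RUNX1: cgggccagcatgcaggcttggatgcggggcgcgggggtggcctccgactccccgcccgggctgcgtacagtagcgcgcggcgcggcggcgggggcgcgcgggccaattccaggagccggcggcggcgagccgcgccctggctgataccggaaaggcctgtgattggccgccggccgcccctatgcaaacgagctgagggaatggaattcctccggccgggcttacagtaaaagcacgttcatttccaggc
The ITGA2B window held 1 GATA match that starts 102 bases before the gene start and 1 ETS match 243 bases before it, and the RUNX1 window held none of the 3. Of 35116 RefSeq windows of the same length, 22.3% held a GATA match, 65.1% an ETS match and 16.3% a RUNX match, so these are descriptions of letters and not sites.

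RUNX1, the core binding factor subunit required for megakaryocyte maturation, was the most abundant of the 9 genes with a mean of 40.6 TPM over all libraries. It was listed at 48.9 and 38.9 TPM in sgGal4, 45.6 and 39.9 TPM in K, 26.4 and 29.7 TPM in L, 29.8 and 32.3 TPM in LK, and 48.6 and 65.8 TPM in KL. The group means ran from KL (57.2 ± 12.2 TPM) through sgGal4 (43.9 ± 7.09 TPM), K (42.7 ± 4.04 TPM) and LK (31.0 ± 1.82 TPM) to L (28.0 ± 2.30 TPM). The values of KL overlapped those of sgGal4, and those of sgGal4 overlapped those of K, whereas all libraries of L and LK lay below all libraries of the other 3 groups. On the log2(TPM + 1) scale RUNX1 differed by −0.62 between L and sgGal4 (95% interval −1.11 to −0.14, limma adjusted p = 0.248) and by −0.48 between LK and sgGal4 (interval −0.96 to 0.01, adjusted p = 0.358). KL against sgGal4 gave 0.37 (interval −0.12 to 0.85, adjusted p = 0.499) and K against sgGal4 gave −0.03 (interval −0.52 to 0.45). None of these passed the threshold of an adjusted p under 0.05, and the intervals are not adjusted over genes.

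RUNX1 had the smallest p of the 4 genes in the test of any difference among the 5 groups, where it ranked 375 of 10127 genes (limma F test, adjusted p = 0.119). The difference between LK and KL was −0.85 on the log2 scale (interval −1.33 to −0.36, adjusted p = 0.173), with every KL library above every LK library. KL against L, a comparison added after the levels had been seen, gave 0.99 (interval 0.50 to 1.48, adjusted p = 0.112) and ranked 58 of all genes tested. RUNX1 thus differed by close to 1 on the log2 scale between the extreme groups without passing the threshold over all genes.

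FLI1, the ETS factor that acts with RUNX1 on platelet genes, was near the lower limit of the listed values. It was listed at 0 in both sgGal4 and both K libraries, at 0.09 and 0 TPM in L, at 0.20 and 0.11 TPM in LK, and at 0.39 and 1.73 TPM in KL. Both KL libraries lay above all 8 others, but the KL replicates themselves differed more than the other 4 groups did from each other. FLI1 has no fold against groups at 0, and it entered a test only when no filter on low values was applied, with 0.96 on the log2 scale for KL against sgGal4 (limma adjusted p = 0.185 over 14466 genes).

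ITGA2B, which encodes integrin alphaIIb (CD41) and is an early marker of the lineage, was low in all groups but KL. It was listed at 0.93 and 0.23 TPM in sgGal4, 1.23 and 0 TPM in K, 0.25 and 0.22 TPM in L, 0.80 and 0.60 TPM in LK, and 4.81 and 1.83 TPM in KL. Both KL libraries were above all 8 others, and the sgGal4, K and LK values overlapped. The gene reached the filter only through KL, since its mean was 1.09 TPM over all libraries and 0.532 TPM over the 8 libraries without KL. Its comparisons with KL are therefore descriptions and not tests. KL against sgGal4 gave 1.40 on the log2 scale (95% interval 0.26 to 2.53), and K, L and LK against sgGal4 gave −0.05, −0.32 and 0.14. The KL difference was 0.88 without KL replicate 1, the higher of the KL libraries, and 1.91 without KL replicate 2. LK against KL gave −1.26 (interval −2.39 to −0.12), again as a description.

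ITGB3 encodes integrin beta3 (CD61), the partner of alphaIIb, and did not show the same pattern as ITGA2B. It was listed at 0.20 and 0.05 TPM in sgGal4, 0 and 0.20 TPM in K, 0.10 and 1.27 TPM in L, 0 and 0.08 TPM in LK, and 1.50 and 0.18 TPM in KL. A single L library and a single KL library held the values above 1 TPM, and in each of these groups the other library was within the range of the controls.

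GP1BA, the ligand-binding chain of the von Willebrand factor receptor, was listed at 0.11 TPM in L replicate 1 and at 0 in the other 9 libraries. PF4, the chemokine of platelet alpha granules, was listed at 0 in all 10. PLEK, the protein kinase C substrate pleckstrin of platelets, was listed at 0.09 TPM in sgGal4 replicate 2, 0.10 TPM in KL replicate 1 and 0 elsewhere. For these 3 genes no comparison between groups was made. In every library all 3 were listed at or under 0.11 TPM, whereas RUNX1 was never under 26.4 TPM.

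**Figure D1:**
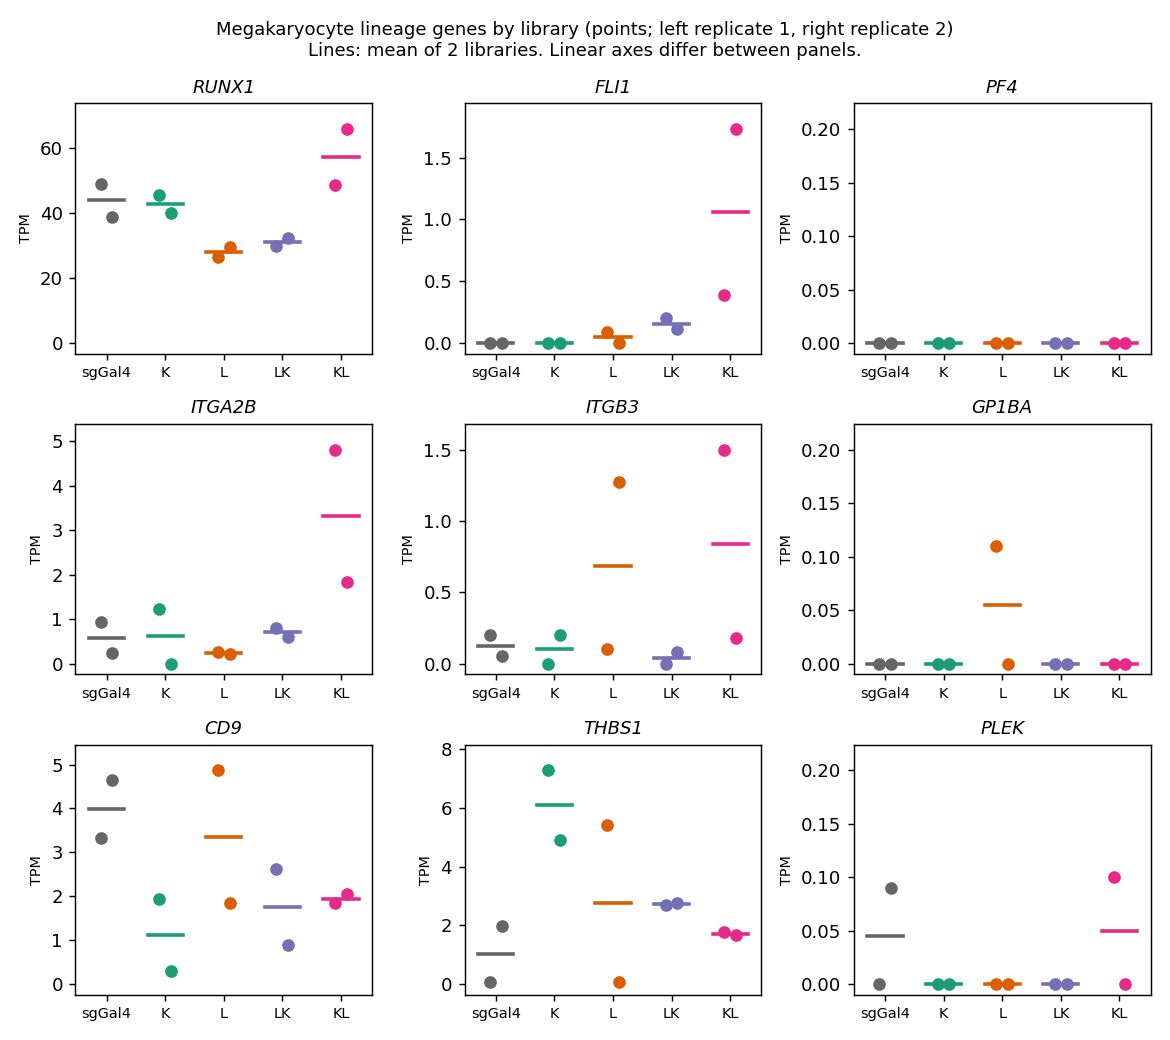
TPM (linear y axis, which differs between panels) of the 9 genes in each library, with replicate 1 at the left and replicate 2 at the right of each group and a line at the mean of 2 libraries. RUNX1 is the only gene of the 9 that is never under 26.4 TPM, both KL libraries are highest for ITGA2B and FLI1, and PF4 is at 0 throughout.

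CD9, a tetraspanin of the platelet and megakaryocyte surface, was listed at 3.33 and 4.64 TPM in sgGal4, 1.93 and 0.30 TPM in K, 4.87 and 1.84 TPM in L, 2.63 and 0.89 TPM in LK, and 1.85 and 2.05 TPM in KL. The K, LK and KL libraries all lay below both sgGal4 libraries, and the L libraries lay on either side of them. K against sgGal4 gave −1.34 on the log2 scale (95% interval −2.47 to −0.21, limma adjusted p = 0.234), LK gave −0.92, KL gave −0.75 and L gave −0.28. Without K replicate 2 the K difference was −0.75, and without K replicate 1 it was −1.93.

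THBS1 encodes thrombospondin 1, a glycoprotein of alpha granules that other cells also secrete. It was listed at 0.07 and 1.99 TPM in sgGal4, 7.28 and 4.91 TPM in K, 5.40 and 0.09 TPM in L, 2.70 and 2.76 TPM in LK, and 1.76 and 1.68 TPM in KL. The K and LK libraries lay above both sgGal4 libraries, the KL values lay between the sgGal4 ones, and the replicates of sgGal4 and of L were far apart. K against sgGal4 gave 1.97 on the log2 scale (95% interval 0.50 to 3.43, limma adjusted p = 0.171), and L, LK and KL gave 0.56, 1.06 and 0.60. These values moved with single libraries. Without sgGal4 replicate 1 they were 1.23 in K, −0.18 in L, 0.32 in LK and −0.14 in KL, and without sgGal4 replicate 2 they were 2.71, 1.30, 1.80 and 1.35. The L difference was −0.71 without L replicate 1 and 1.84 without L replicate 2.

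RUNX1, CD9 and THBS1 did not pass an adjusted p under 0.05 by limma in any comparison, and the all-gene shares were small. ITGA2B did not either, but it met the filter only through KL, so it is left out of the counts. Against sgGal4, 0 of the other 3 genes passed in K, where 1.62% of all genes tested did. The count was 0 of 3 in L (0.869%), 0 of 3 in LK (2.00%) and 0 of 3 in KL (1.36%). At an unadjusted p under 0.05, 2 of these 3 genes passed in K (CD9 and THBS1), against 15.6% of all genes. In L 1 passed (RUNX1), against 12.8%, 0 in LK, against 14.2%, and 0 in KL, against 14.7%. These 4 comparisons share the sgGal4 libraries.

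With the 4 sgHS2 groups averaged and set against sgGal4, 0 of the 3 members passed the adjusted threshold (3.26% of all genes did). At the unadjusted one 0 of 3 passed (17.1%). For dual (LK and KL) against single (K and L) effectors, 0 of 3 passed (0.0889%), and 0 of 3 passed the unadjusted one (7.45%). For LK against KL, 0 of 3 passed (0.385%), and RUNX1 was past the unadjusted threshold (9.84%). For K against L, 0 of 3 passed (0.0395%), and RUNX1 with 0.59 was past the unadjusted threshold (8.34%). In the F test over all groups 0 of 3 passed (1.82%), with RUNX1 past the unadjusted threshold (15.8%). In the added comparisons 0 of 3 passed for KL against K (0.168%), KL against L (0.276%), LK against K (0.00987%) and LK against L (0.118%). At an unadjusted p under 0.05, 0, 1, 0 and 0 of the 3 genes were past it, against 9.97%, 9.60%, 5.18% and 8.15% of all genes. An adjusted p over the threshold does not show that the groups are alike, since in the 4 comparisons of a single group with sgGal4 the intervals of ITGA2B, CD9 and THBS1 span more than 2 on the log2 scale.

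**Figure D2:**
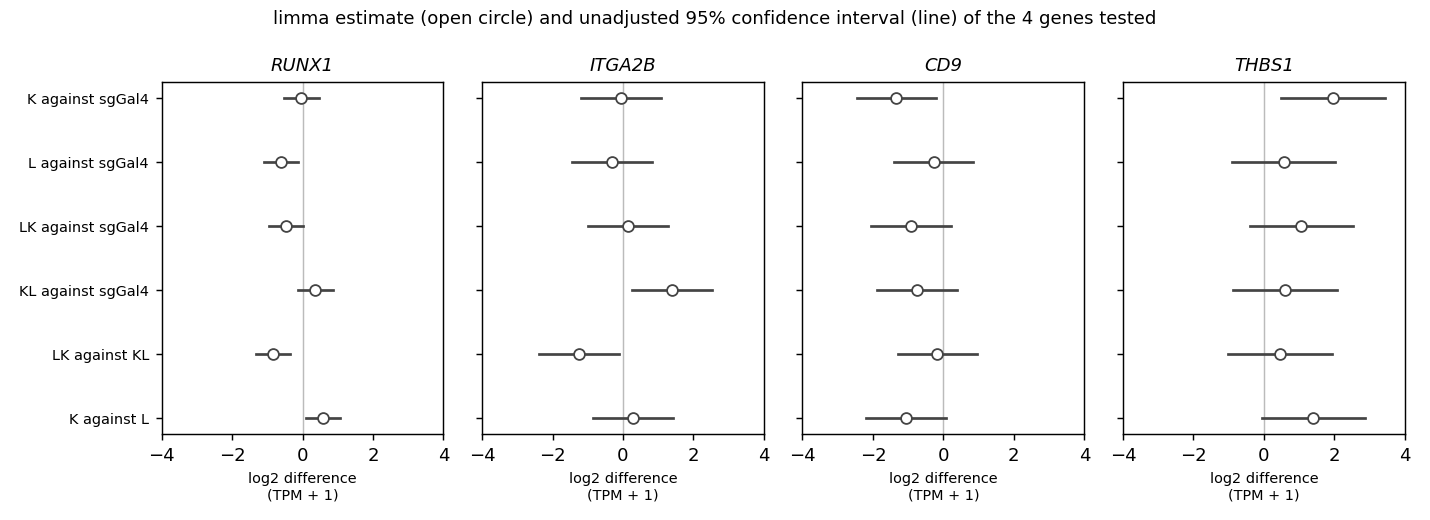
Difference on the log2(TPM + 1) scale (x axis) of the 4 tested genes in 6 comparisons (y axis), as the limma estimate (open circle) with its unadjusted 95% confidence interval (line). The intervals of RUNX1 are narrower than those of the other 3 genes, and those that leave out 0 are L against sgGal4, LK against KL and K against L for RUNX1, KL against sgGal4 and LK against KL for ITGA2B, and K against sgGal4 for CD9 and THBS1. ITGA2B met the filter only through KL, so its comparisons with KL are descriptions and not tests.

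Over the 10 libraries the levels of RUNX1 and ITGA2B had a Pearson r of 0.60 on the log2(TPM + 1) scale, and CD9 and THBS1 had values between −0.17 and 0.02 with the other members. Of 10126 other genes, those most like RUNX1 were LRRC46 (r 0.92), EHD1 (r 0.90) and COG7 (r 0.89). Those most like ITGA2B were ARHGAP15 (r 0.93), ATP2A3 (r 0.92) and AAGAB (r 0.91), and those most like THBS1 were HIST1H3A (r 0.93), ARID5A (r 0.92) and C2orf15 (r 0.91). ITGA2B was at 4.81 and 1.83 TPM in KL and at 1.23 TPM or less elsewhere, so its correlations may rest largely on KL. The points share libraries in pairs and were picked as the highest of many, so these are descriptions with no test.

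Further genes of the megakaryocyte programme were read through 5 lists of 106 genes (107 symbols, since IL8 and CXCL8 are the same gene), of which 72 were tested. These lists were drawn up with earlier results of these data known, and ARHGDIB and SPARC were among the genes known to differ. The counts are therefore not independent evidence of an excess or of a direction. In these lists 5 genes passed the threshold in K against sgGal4 (1 higher and 4 lower, 6.94% of the 72), 5 in L (1 higher and 4 lower, 6.94%), 7 in LK (2 higher and 5 lower, 9.72%) and 7 in KL (4 higher and 3 lower, 9.72%). Over all genes these shares were 1.62%, 0.869%, 2.00% and 1.36%. Without ARHGDIB and SPARC the counts were 4 (0 higher), 5 (1 higher), 5 (0 higher) and 5 (2 higher) of 70, still from lists chosen with results known. The median difference of the 72 genes was −0.11, −0.21, −0.17 and 0.07 on the log2 scale, beside 0.06, 0.0050, 0.03 and 0.05 over all genes. In total 11 of the 72 genes passed in at least 1 of these 4 comparisons and 2 of them, TIMP1 and EGR1, in all 4.

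Without K replicate 1 the count in K was 2, without K replicate 2 it was 0 and without sgGal4 replicate 1 it was 1. The count in L was 2 without L replicate 1, 0 without L replicate 2, 2 without sgGal4 replicate 1 and 3 without either LK library. The count in LK was 2 without either LK library and 4 without either sgGal4 library. In KL it stayed between 5 and 8. Without the mean-variance trend the counts in K, L, LK and KL were 1, 1, 2 and 5, without a filter on low values 3, 3, 3 and 5, and with only the groups compared 3, 2, 3 and 7. The calls that held under all 8 alternatives to the processing were those of ARHGDIB, ETS1, SPARC and EGR1 in KL and of VEGFA in L and LK, and every other call in these 4 comparisons was lost under at least 1 of them.

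Among surface receptors 12 of 25 genes were tested and 0 passed in any of the 4 comparisons with sgGal4 by limma, with 1 or 2 at an unadjusted p under 0.05. Over all genes 0.869% to 2.00% passed in these comparisons, and 12.8% to 15.6% were past the unadjusted level. GP9, GP5, GP6, CLEC1B, P2RY12 and TREML1 were listed at 0 in every library. GP1BB, the partner chain of GP1BA, was at 51.8 to 109 TPM, and was named after its values were seen. Of the von Willebrand factor receptor, the beta chain was listed at 51.8 TPM or more and the other 3 chains at or near 0. A listed 0 can be a failed estimate here, so these values do not give the make-up of the receptor.

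Among transcription factors 20 of 22 genes were tested, and 1 rose in L and 1 in KL, where 0.869% and 1.36% of all genes passed in either direction. ETS1, an ETS family activator, was listed at 1.29 and 1.81 TPM in sgGal4, 12.8 and 14.6 TPM in KL and between 1.72 and 4.03 TPM in the other 3 groups. Both KL libraries stood above all others, with a log2 difference of 2.53 ± 0.383 (SE, adjusted p = 0.00325), and this call held under all 8 alternatives and with each of the 10 libraries left out. GFI1B, a repressor required in both megakaryocytes and erythroid cells, rose by 1.02 ± 0.222 in L (adjusted p = 0.0491), from 25.1 and 32.7 TPM to 62.8 and 55.8 TPM. That call held under 3 of 8 alternatives and with 1 of 10 libraries left out. GATA1 and ERG were listed at 0. The paper mapped GATA1 binding in K562 cells by ChIP-seq, so the listed 0 of GATA1 does not show its absence.

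Of 22 genes of granule and secreted proteins 10 were tested, and against sgGal4 0 rose and 2 fell in K, 0 and 2 in L, 1 and 2 in LK, and 2 and 2 in KL. Over all genes 1.62%, 0.869%, 2.00% and 1.36% passed in either direction. TIMP1, a metalloproteinase inhibitor, was at 510 and 502 TPM in sgGal4 and between 229 and 292 TPM in all 8 sgHS2 libraries, and it fell by 0.89 (K), 0.96 (L), 1.05 (LK) and 0.98 (KL) on the log2 scale, with limma adjusted p from 0.0018 to 0.00581. All 4 TIMP1 calls were lost without the mean-variance trend (limma adjusted p from 0.0857 in KL to 0.144 in K). The call in K was lost without K replicate 2 (adjusted p = 0.0864) and that in L without L replicate 2 (adjusted p = 0.0709). VEGFA, the vascular growth factor, was at 81.4 and 83.5 TPM in sgGal4 and between 24.6 and 54.7 TPM in the sgHS2 libraries, and it fell by 1.19 in K, 1.37 in L and 1.69 in LK, with −0.69 in KL (adjusted p = 0.114). The VEGFA call in LK held with every library left out, whereas that in L was lost without L replicate 2 (adjusted p = 0.0741) and that in K without K replicate 2 or sgGal4 replicate 1 (adjusted p up to 0.0887).

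PDGFA, a platelet growth factor chain, fell by 2.54 in KL (adjusted p = 0.00828), from 12.4 and 14.4 TPM to 2.00 and 1.04 TPM. That call was lost without KL replicate 2 or either sgGal4 library (adjusted p up to 0.0965). SPARC, an alpha granule matrix protein, rose by 2.38 ± 0.326 in KL (adjusted p = 0.00148), with 75.0 and 81.3 TPM against 9.23 and 21.6 TPM in sgGal4, and by 1.39 in LK, a call that held with 1 of 10 libraries left out. SRGN, the proteoglycan of granules, rose by 1.25 in KL (adjusted p = 0.026), from 16.2 and 20.4 TPM to 42.6 and 46.4 TPM, and was lost without either KL library or without sgGal4 replicate 1 (adjusted p up to 0.209).

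Of 24 genes of integrin signalling and the platelet cytoskeleton 18 were tested. ARHGDIB, a cytoskeletal regulator of blood cells, was listed at 0 and 1.50 TPM in sgGal4, 6.14 and 6.85 TPM in K, 4.54 and 3.25 TPM in L, 8.70 and 10.5 TPM in LK and 32.6 and 26.1 TPM in KL. All sgHS2 libraries were above both controls, and ARHGDIB rose by 2.24 in K, 2.74 in LK and 4.25 ± 0.426 in KL (adjusted p = 0.000151), with 1.62 in L (adjusted p = 0.102). The KL call held with each library left out, the LK call was lost without either LK library (adjusted p up to 0.0949) and the K call without either K library or sgGal4 replicate 1 (adjusted p up to 0.134).

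RAP1B, the small GTPase that activates alphaIIb beta3, was at 282 and 295 TPM in sgGal4, 200 and 178 TPM in K, 185 and 154 TPM in L, 178 and 194 TPM in LK, and 337 and 349 TPM in KL. It fell by 0.77 ± 0.145 in L (adjusted p = 0.0214) and by 0.63 in LK (adjusted p = 0.0411), with −0.61 in K (adjusted p = 0.0503) and 0.25 in KL (adjusted p = 0.461). The L call was lost without either L library or sgGal4 replicate 1 (adjusted p up to 0.247), and the LK call held with 2 of 10 libraries left out. As for RUNX1, every L and LK library lay below every sgGal4 and KL library, but here the K libraries did too. FLNA, PRKCD, APBB1IP and WAS were listed at 0.

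Of 13 phorbol ester and MAPK response genes 12 were tested, and none of the 12 passed as higher against sgGal4, where 0.869% to 2.00% of all genes passed in either direction. EGR1, an immediate early transcription factor, was at 91.6 and 106 TPM in sgGal4, between 46.0 and 51.2 TPM in K, L and LK, and at 32.6 and 27.9 TPM in KL, and it fell by 1.04 (K), 0.98 (L), 1.01 (LK) and 1.68 ± 0.193 (KL, adjusted p = 0.000462) on the log2 scale. The KL call held with each library left out, and the other 3 calls were lost without 1 of several libraries, both sgGal4 libraries among them for K and L and sgGal4 replicate 2 for LK (adjusted p up to 0.212). Those 3 calls were also lost without the mean-variance trend and with only the groups compared, and that in L with the replicate block. CDKN1A, a cyclin-dependent kinase inhibitor, was at 8.52 and 10.9 TPM in sgGal4 and between 0.60 and 3.57 TPM in the sgHS2 libraries, and it fell by 2.58 in K (adjusted p = 0.011) and 2.05 in LK (adjusted p = 0.0298). Both CDKN1A calls were lost without sgGal4 replicate 1 or without either library of the sgHS2 group compared, and that in LK also without sgGal4 replicate 2 (adjusted p up to 0.253). VIM and CCND1 lay on both sides of the control without passing the threshold. VIM, an intermediate filament protein, ran from −0.53 in L (adjusted p = 0.0534) to 0.48 in LK (adjusted p = 0.051), and CCND1, cyclin D1, ran from −1.22 in LK (adjusted p = 0.219) to 1.13 in KL (adjusted p = 0.253).

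The other comparisons were read over the same 72 genes, from lists drawn up with earlier results of these data known. Over the mean of the 4 sgHS2 groups 2 rose and 6 fell (TIMP1, VEGFA, EGR1, CDKN1A, PDGFA and VCL), 11.1% of the 72 beside 3.26% of all genes. The 2 that rose were ARHGDIB and SPARC, and without them the count was 0 higher and 6 lower. VCL, which encodes the focal adhesion protein vinculin, fell by 0.81 ± 0.19 (adjusted p = 0.0346) and held with 3 of 10 libraries left out. Without sgGal4 replicate 1 this count was 4, and without sgGal4 replicate 2 it was 5. Dual against single effectors had 1 gene past the threshold (1.39% of the 72, beside 0.0889% of all genes). It was SPARC, with 1.35 ± 0.231 (limma adjusted p = 0.0465), a call that held with 2 of 10 libraries left out. K against L had 0 by limma (0.0395% of all genes), with 10 of the 72 at an unadjusted p under 0.05, beside 8.34% of all genes. The F test over all groups passed 12 of the 72 genes (16.7%, beside 1.82% of all genes), or 10 of 70 without ARHGDIB and SPARC, among them ANGPT1, a granule growth factor for vessels, with 48.4 and 48.6 TPM in KL against 15.6 to 36.8 TPM in the other 8 libraries (adjusted p = 0.0289). The ANGPT1 call held with 3 of 10 libraries left out and was lost without a filter on low values and without the mean-variance trend (adjusted p up to 0.129). The F test count was 6 without KL replicate 2, 8 without KL replicate 1, LK replicate 1 or sgGal4 replicate 1, 6 without a filter on low values and 3 without the mean-variance trend.

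LK against KL had 5 of the 72 genes past the threshold (1 higher and 4 lower, 6.94% beside 0.385% of all genes). In the added comparisons KL against L had 5, all higher in KL (6.94% beside 0.276%), namely ARHGDIB (2.64), LCP2 (2.53), ETS1 (2.38), ANGPT1 (1.44) and RAP1B (1.02 on the log2 scale). KL against K had 2 (2.78%, beside 0.168% of all genes), SPARC (2.08) and RAP1B (0.86). LK against L had 1 (1.39%, beside 0.118%), VIM (1.01). LK against K had 0 by limma (0.00987% of all genes), with 7 of the 72 at an unadjusted p under 0.05, beside 5.18% of all genes. Without L replicate 2 or either KL library the count of KL against L was 0, and without L replicate 1 it was 1. For KL against K it was 0 without K replicate 1 or either KL library, 1 without K replicate 2 or either LK library, and 4 without either sgGal4 library, and for LK against L it was 0 without L replicate 1 or LK replicate 1. LK against KL had 0 without LK replicate 1 or either KL library, 1 without LK replicate 2 and 3 without sgGal4 replicate 1, sgGal4 replicate 2, either K library or L replicate 2. Without a filter on low values or without the mean-variance trend, LK against KL and KL against L each had 1.

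**Figure D3:**
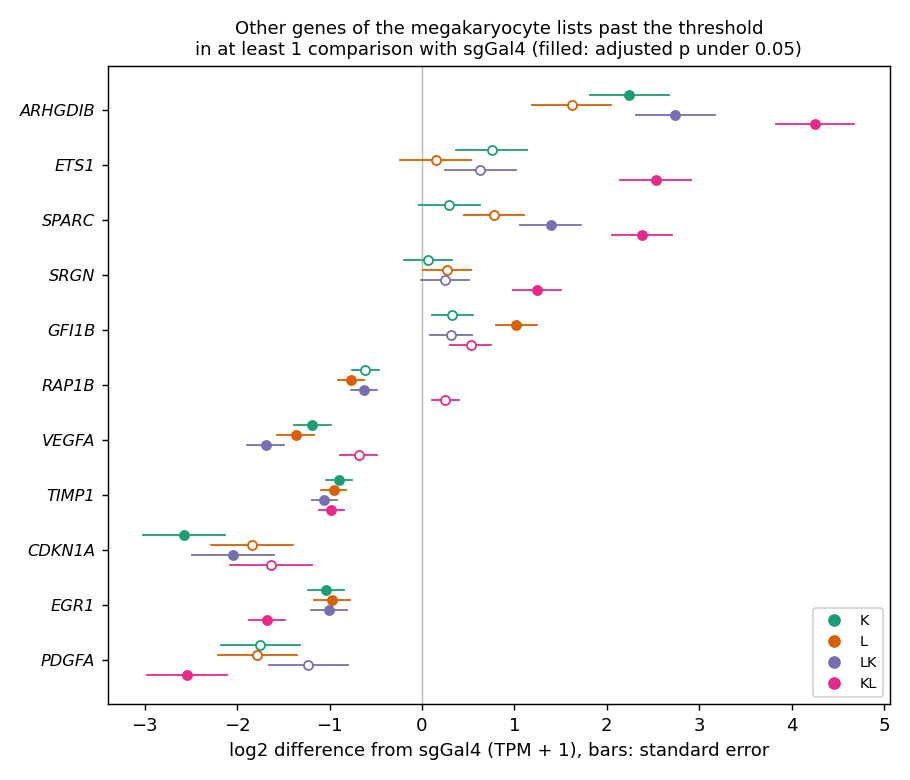
Difference from sgGal4 on the log2(TPM + 1) scale (x axis) for the 11 list genes (y axis) past the threshold in at least 1 of the 4 sgHS2 groups, with bars for the standard error, and filled points for an adjusted p under 0.05. TIMP1 and EGR1 are filled in all 4 groups on the lower side, and the largest rise is that of ARHGDIB in KL.

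Markers of other lineages were read in the same libraries. The 16 erythroid markers summed to 1940 to 1956 TPM in sgGal4, 2284 to 2381 TPM in K, 2991 to 3822 TPM in L, 1611 to 1653 TPM in LK and 2403 to 2544 TPM in KL, so this sum was highest in L and lowest in LK, the groups with the lowest RUNX1. HBZ, embryonic zeta globin, makes up most of it with a mean of 1403 TPM. Of 14 erythroid markers tested, KLF1, an erythroid activator, rose in K (0.95) and L (1.17), HBZ rose in L (1.21) and KL (0.66), BCL11A, a globin repressor, rose in KL (2.16), and HEMGN, an erythroid nuclear protein, fell by 0.87 in LK, all on the log2 scale against sgGal4. Of these 6 calls only that of HBZ in L held with every library left out, and it was lost without the mean-variance trend (adjusted p = 0.101). The 17 myeloid markers summed to 7.51 to 15.7 TPM in sgGal4, 21.0 to 33.3 TPM in K and 13.8 to 22.3 TPM in L, LK and KL, with CLC, MPO, ELANE, CTSG, CSF1R, S100A8 and S100A9 at 0 in all libraries. PRG2, an eosinophil granule protein, rose in K (3.07, adjusted p = 0.00384) and in KL (2.14, adjusted p = 0.0219), from 0 and 0.26 TPM in sgGal4. The PRG2 call in K was lost without K replicate 2 (adjusted p = 0.0585) and that in KL without KL replicate 1 or either sgGal4 library (adjusted p up to 0.174). The 10 lymphoid markers summed to 26.1 to 33.6 TPM in sgGal4 and 1.65 to 21.3 TPM in the sgHS2 libraries, nearly all of it CD3D, with CD3E, MS4A1, CD79A, CD79B, CD2 and CD4 at 0. KLF1, HBZ, BCL11A and PRG2 were also among the genes named in earlier results of these data. The part of these markers in the results above was not tested. In bulk libraries fewer cells with a programme and less RNA per cell cannot be told apart.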

How the data were processed

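RNA-seq was read in 10 K562 libraries, 2 for each of 5 groups named in the titles. By the methods the authors aligned reads to hg19 with STAR (version 2.5.2b), kept reads with a single location and computed TPM with RSEM. The authors deposited TPM only. Depth is therefore unknown, and nothing that needs read counts is given. For library preparation the labels give a poly(A) directional kit, whereas the paper gives Ovation. TPM is relative to all transcripts of a library, so a change in abundant mitochondrial transcripts moves every other gene. The DESeq2 test that the authors name takes counts and was not repeated.

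From the deposited values log2(TPM + 1) was fitted in limma (version 3.58.1, in R version 4.3.3 with jsonlite version 2.0.0) for the 10127 of 20535 genes that averaged 1 TPM or more. One fit held all 5 groups, with 5 residual degrees of freedom, variances moderated along a mean-variance trend, and Benjamini-Hochberg adjusted p-values over all genes tested, and an adjusted p under 0.05 was the threshold. Differences on this scale understate the change of low genes. The fit was tested on simulated data with changes put into KL. In KL against sgGal4 it called 21% of log2 changes of 1 and 69% of log2 changes of 2. The F test called 13% and 61% of them, so a change of 1 was mostly missed. The members and lists were chosen with earlier results of these data known, and all 9 members are named. List genes are named where past the threshold, up to 20 per comparison, or listed at 0, along with the genes most correlated with a member and KDM1A, ZNF10 and HBE1 as checks. PGK1, UBA1 and HDAC6 were named after their values were seen. RefSeq promoter windows were found for 5 of the 9 members. Replicate numbers did not pair the libraries. Gene spans came from GENCODE mapped to GRCh37. Python version 3.11.15, numpy version 2.4.6, pandas version 2.3.3 and matplotlib version 3.10.9 were used.

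The alternatives were no filter on low values, a pseudocount of 0.1, median-of-ratios size factors, quantile normalization, removal of 13 mitochondrial genes with rescaling, no mean-variance trend, the replicate block, a fit of only the groups compared, and each library left out.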

Additional observations from a re-analysis of the deposited data

Results flagged for a closer look

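LK and KL carry the same parts in opposite arrangement by their names, and a direct limma test of LK against KL found 5 of 72 megakaryocyte list genes (6.94%, beside 0.385% of all genes) and the erythroid marker HBZ on different levels. LCP2, the adaptor SLP-76 of platelet signalling, was at 1.66 and 2.31 TPM in LK and 24.3 and 21.0 TPM in KL, a difference of −2.99 on the log2 scale (adjusted p = 0.019). RAP1B differed by −0.88 (adjusted p = 0.02), and VIM, the intermediate filament vimentin, by 0.83 (adjusted p = 0.0107) with 754 and 713 TPM in LK and 431 and 392 TPM in KL. HBZ, embryonic zeta globin, differed by −0.93 (adjusted p = 0.0131), with 800 and 829 TPM in LK and 1457 and 1659 TPM in KL. VEGFA differed by −1.003 (adjusted p = 0.0485) and held under 3 of 8 alternatives and with 0 of 10 libraries left out. CCND1, cyclin D1, differed by −2.35 (adjusted p = 0.0392) and held under 1 of 8 alternatives and with 2 of 10 libraries left out. The calls of LCP2, RAP1B, VIM and HBZ were each lost without any 1 of the 4 LK and KL libraries, with adjusted p up to 0.228. ZNF10 was listed at a mean of 34.15 TPM in LK and 362 TPM in KL, so equal levels of the parts cannot be assumed. The reason for these differences was not tested, and each group is a separate population. The lists were drawn up with earlier results of these data known.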

How the results depend on the processing

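None of the 4 tested members passed the threshold under the alternatives run: all 160 member counts, those with a library left out included, were 0, and 0 of 928 member values were called. ITGA2B is among these members and met the filter only through KL, so its values in comparisons with KL are not tests. The data are limited by 2 libraries per group and unknown depth. The replicate numbers showed no pairing (correlations of −0.0213 to 0.0229 over 10 pairs of groups), and the fit with the replicate block gave 0 members in each comparison. The list genes' values covered only calls of the main fit, markers of other lineages included, so a gain past the threshold could not be recorded. Of these values 943 stayed past the threshold, 381 lost it and none of the differences changed direction. The cause was not tested. Removing mitochondrial genes moved the median of all genes from 0.06 to −0.11 in K and from 0.03 to −0.11 in LK, with 7 and 9 list genes past the threshold.

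Among the 8 alternatives other than left-out libraries, the count of list genes in L was highest, at 11, under quantile normalization or without mitochondrial genes. Counts over all genes, against sgGal4 in the order K, L, LK and KL, were 164, 88, 203 and 138, but 14, 22, 15 and 75 without the trend, 51, 37, 61 and 83 without the filter, and 59, 25, 57 and 66 when only the groups compared were fitted.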
